A study of Homo sapiens with 4 samples.

Results

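The gastrointestinal endoderm transcription factors described here are 8 genes, GATA4, GATA6, HNF4A, HNF4G, FOXA1, FOXA2, CDX2 and KLF5, chosen by name from the 31907 gene names that had a count in any library. A gene missing from a library was taken as 0 counts. By this rule 7 of the 8 factors had a count, and 6 of them were expressed highly enough to enter the test over 16361 genes. By their labels the libraries come from HGC-27, a human gastric cancer (GC) cell line. PBS-treated cells gave 2 libraries, and cells given recombinant IL-17B (rIL-17B), a secreted cytokine of the IL-17 family, at 200 ng/ml gave 2 libraries, all collected after 48 h. The comparison asks which transcripts of GC cells differ after rIL-17B. RNA was copied from an oligo-dT primer and amplified by PCR (Smart-seq2), and levels are given as CPM, the count divided by the library's total count and multiplied by 1000000.

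The early gut tube is patterned by a small set of DNA-binding proteins that stay active in the adult epithelium. FOXA1 and FOXA2 are forkhead pioneer factors that open closed chromatin, and the zinc finger proteins GATA4 and GATA6 act beside them in foregut and stomach. HNF4A and HNF4G are nuclear receptors that drive enterocyte and hepatocyte genes, CDX2 is the homeobox factor of the intestine, and KLF5 is a zinc finger factor of dividing epithelial progenitors.

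The sequences just upstream of GATA6, FOXA1 and KLF5 are shown because these genes took 3 different courses in the libraries described next: GATA6 was low in one rIL-17B library, FOXA1 was high in it, and KLF5 kept nearly one level. Each is the stretch of the 250 bases before a RefSeq start of the gene (GRCh38.p14) that lies outside exons of protein-coding genes in GENCODE 29. Capitals mark matches on either strand to 5 short motifs, GATAA (GATA proteins), CACCC (KLF proteins), TGTTT (the forkhead core), GGGCGG (the GC box) and TATAAA (the TATA box). The GATA6 stretch, chr18:22169339-22169442 on the plus strand, ends at the base before the first exon. The FOXA1 stretch, chr14:37595349-37595499 on the minus strand, is intronic in the longer GENCODE model of the gene. The KLF5 stretch, chr13:73054726-73054975 on the plus strand, ends at the base before the annotated gene. KLF5 has another RefSeq start downstream, whose stretch, not shown, kept 37 bases with 48.6% G or C and no motif match.
GATA6: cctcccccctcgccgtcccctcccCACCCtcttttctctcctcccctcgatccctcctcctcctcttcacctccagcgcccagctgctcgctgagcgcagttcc
FOXA1: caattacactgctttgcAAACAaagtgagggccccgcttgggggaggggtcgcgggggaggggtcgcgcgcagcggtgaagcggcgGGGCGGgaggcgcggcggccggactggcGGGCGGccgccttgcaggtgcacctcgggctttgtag
KLF5: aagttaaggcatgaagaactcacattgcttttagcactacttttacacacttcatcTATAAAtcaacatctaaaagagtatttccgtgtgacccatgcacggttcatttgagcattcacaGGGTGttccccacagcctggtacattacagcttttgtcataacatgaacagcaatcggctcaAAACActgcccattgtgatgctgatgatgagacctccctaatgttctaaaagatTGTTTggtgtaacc

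The GATA6 stretch of 104 bases was 68.3% G or C and held 1 CACCC match, a motif found in 27.9% of all 35116 RefSeq promoters over a window of that size and place. The FOXA1 stretch of 151 bases was 72.2% G or C, with 18 CG pairs, 2 GC boxes (at least 1 in 26.0% of promoters) and 1 forkhead core (29.9%). The KLF5 stretch shown differed in composition, with 40.8% G or C and 3 CG pairs over 250 bases, against a median of 58.0% G or C among promoters. It held 1 TATA box (10.7% of promoters), 1 CACCC (54.7%) and 2 forkhead cores (40.4%). No GATAA was found in any of the 3 stretches, and a match or its lack is a description of these letters only.

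The libraries were compared before any average was taken. Totals lay between 12888029 and 17555879 counts, so that the floor of 3 counts corresponded to 0.171 to 0.233 CPM. Floors and intervals given here cover counting error only, since PCR copies were counted as separate reads. rIL-17B replicate 1 stood apart from the other 3 libraries: 2771 of the 16361 tested genes (16.9%) differed at least 2-fold between it and rIL-17B replicate 2, against 104 genes (0.636%) between the PBS libraries. Between rIL-17B replicate 2 and the PBS libraries 78 and 292 genes differed that far. The levels of the endoderm factors are therefore given for each rIL-17B library on its own, beside the fit over all 4 libraries. The labels give both rIL-17B libraries the same cell line, dose and time. Whether replicate 1 held the same cells as the others, or was handled differently, cannot be told apart from the treatment in its values, and this bears on each value of that library.

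In PBS-treated cells KLF5 was the most abundant endoderm factor per length of transcript, GATA6 came next, and GATA4, FOXA1 and CDX2 lay close together. Levels between genes are compared as CPM per kb of exon. KLF5 stood at 10.06 ± 0.317 CPM per kb (SD, n = 2), above 86.6% of 31217 genes with a known length. GATA6 stood at 3.37 ± 0.672, above 71.8% of genes. GATA4, at 0.661 ± 0.0537, lay above 53.9% of genes, FOXA1, at 0.599 ± 0.158, above 52.7%, and CDX2, at 0.481 ± 0.0117, above 50.0%. These last 3 factors were thus near the middle of these 31217 genes, a set that takes in every gene of known length with a count in any library. Only 16361 genes were expressed highly enough to enter the test, so this is not a middle rank among the tested genes. HNF4G was low, at 0.112 ± 0.0447 CPM per kb, above 31.2% of genes, while HNF4A and FOXA2 had 0 counts in both PBS libraries.

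The ranges of the 2 PBS libraries did not touch between KLF5 and GATA6, between GATA6 and GATA4, or between CDX2 and HNF4G. They overlapped between GATA4 (0.623 to 0.699 CPM per kb) and FOXA1 (0.487 to 0.711), and between FOXA1 and CDX2 (0.473 to 0.489), so that these neighbours were not separated. When the longest transcript was used as the length, GATA4 and FOXA1 still overlapped, and FOXA1 (0.678 to 0.989) lay above CDX2 (0.481 to 0.498).

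**Figure D1:**
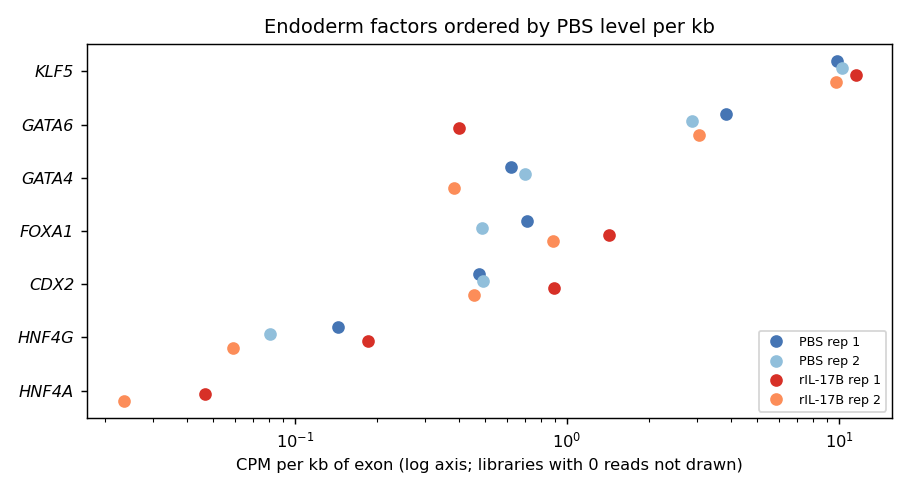
Level of each endoderm factor in CPM per kb of exon (log axis), with 1 point per library and the factors ordered by their PBS mean; libraries with 0 reads are not drawn, which leaves out FOXA2. The PBS libraries and rIL-17B replicate 2 lie close together for KLF5 and GATA6, whereas rIL-17B replicate 1 lies at 0.399 CPM per kb for GATA6, below FOXA1 (1.43) and CDX2 (0.896) in the same library.

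The order of the factors was not the same in the 2 rIL-17B libraries. In rIL-17B replicate 2 it began KLF5 (9.76 CPM per kb), GATA6 (3.06) and FOXA1 (0.887), followed by CDX2 (0.456) and GATA4 (0.385). In rIL-17B replicate 1 KLF5 (11.53) was followed by FOXA1 (1.43) and CDX2 (0.896), then by GATA6 (0.399) and HNF4G (0.185), and GATA4 had 0 counts.

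Between rIL-17B and PBS, none of the tested endoderm factors passed. By the quasi-likelihood F test of edgeR, Benjamini-Hochberg adjusted over all 16361 genes, 0 of 6 factors and 0 genes in all (0.0%) had an adjusted p under 0.05, and the smallest adjusted p of any gene was 0.661. Before adjustment, 0 of the 6 factors and 226 of all genes (1.38%) had a p under 0.05, and DESeq2 gave 457 such genes and 0 calls. The labels do not say that the 2 libraries of a group came from separate cultures, so the p-values measure only the spread between these libraries. An exact permutation test of 2 against 2 libraries cannot give a two-sided p under 0.333 and was not used.

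GATA6 is needed for the extraembryonic and definitive endoderm, and its gene is amplified in some cancers of the stomach and oesophagus. It lies on chromosome 18 (22169443 to 22202528, plus strand, ENSG00000141448.8, GENCODE 29 on GRCh38). It had 241 and 147 reads in the PBS libraries, 23 and 212 in rIL-17B replicates 1 and 2. As CPM these were 15.15 and 11.41 with PBS, and 1.57 and 12.08 with rIL-17B. Only rIL-17B replicate 1 was low, and the groups overlapped, because rIL-17B replicate 2 lay between the PBS libraries. The low library was 8.44-fold below the PBS mean (95% Poisson interval of its level 0.998 to 2.36 CPM), and the other stood at 0.909 of that mean. Over all 4 libraries the level was 13.28 ± 2.65 CPM (SD, n = 2) with PBS and 6.83 ± 7.43 (SD, n = 2) with rIL-17B. The log2 fold change was -0.98 with a standard error of 1.07 (edgeR, adjusted p = 0.693).

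Antisense genes overlap GATA6. GATA6-AS1, whose exons cover 240 bases (6.1%) of the GATA6 exons, had 9 and 7 reads under PBS, then 1 and 30 after rIL-17B. AC091588.3 covers 321 bases (8.1%) and had 8 and 1 reads under PBS, then 0 and 1 after rIL-17B. Whether counting used strand is not given in the sources used here, so reads of these shared bases cannot be told apart. AC091588.1 and RNU6-702P lie within the span of GATA6 without sharing an exon base and had at most 10 reads.

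GATA4, the close relative that marks the proximal gut and the heart, lies on chromosome 8 (11676959 to 11760002, plus strand, ENSG00000136574.17). Its reads numbered 44 and 40 with PBS, 0 and 30 in rIL-17B replicates 1 and 2, or 2.77, 3.10, 0 and 1.71 CPM. Both rIL-17B libraries lay below both PBS libraries, so the groups did not overlap. rIL-17B replicate 1 was at least 14.3-fold lower than the PBS mean when its 0 reads were set to the floor of 3 counts, and rIL-17B replicate 2 was 1.72-fold lower. For the 0 reads the upper 95% Poisson bound was 0.252 CPM, above that floor of 0.205 CPM, so 14.3 is not a 95% bound. The 95% Poisson interval of rIL-17B replicate 2 (1.15 to 2.44 CPM) overlapped those of the PBS libraries (2.01 to 3.71 and 2.22 to 4.23 CPM). The fitted log2 fold change was -1.76 with a standard error of 1.65 (edgeR, adjusted p = 0.672). GATA4 was the sole factor among the 6 tested whose rIL-17B libraries were both below PBS, and over all genes tested 27.5% had that arrangement.

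FOXA1, the forkhead factor that in the adult works in gut, prostate and breast epithelium, lies on chromosome 14 (37589984 to 37596059, minus strand, ENSG00000129514.5). It had 45 and 25 reads under PBS, then 83 and 62 after rIL-17B, which gave 2.83 and 1.94 CPM against 5.68 and 3.53 CPM. Both rIL-17B libraries were above both PBS libraries, at 2.38 and 1.48 times the PBS mean. The 95% Poisson interval of rIL-17B replicate 2 (2.71 to 4.53 CPM) overlapped that of PBS replicate 1 (2.06 to 3.79 CPM), and that of rIL-17B replicate 1 (4.52 to 7.04 CPM) lay above both PBS libraries. Its log2 fold change of 0.86 had a standard error of 0.40 and the smallest unadjusted p of the 6 factors, 0.103 (edgeR, adjusted p = 0.661). Among the 6 tested factors FOXA1 alone was higher without overlap, an arrangement found in 31.5% of all genes tested. In either direction the groups of 2 of the 6 tested factors did not overlap, against 59.0% of all genes. TTC6, on the other strand, shares 16 bases (0.4%) of the FOXA1 exons and had 2 to 6 reads per library.

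FOXA2, which precedes FOXA1 in the definitive endoderm, lies on chromosome 20 (22581005 to 22585455, minus strand, ENSG00000125798.14) and was listed in no library. With 0 counts, the upper 95% Poisson bounds of its level were 0.210 to 0.286 CPM, depending on the library.

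CDX2 sets intestinal identity and appears in the stomach in intestinal metaplasia; it lies on chromosome 13 (27962137 to 27971139, minus strand, ENSG00000165556.9). It had 31 and 26 reads under PBS, then 54 and 33 after rIL-17B. The levels were 1.95 and 2.02 CPM with PBS, 3.70 and 1.88 CPM in rIL-17B replicates 1 and 2. Only rIL-17B replicate 1 was high, at 1.86 times the PBS mean with a 95% Poisson interval of 2.78 to 4.82 CPM, and the groups overlapped. The log2 fold change was 0.40 with a standard error of 0.42 (edgeR, adjusted p = 0.687).

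KLF5 lies on the same chromosome (73054976 to 73077542, plus strand, ENSG00000102554.13). With 516 to 667 reads per library it was the best measured factor. It stood at 38.29 and 40.04 CPM under PBS and at 44.88 and 37.99 CPM after rIL-17B. The rIL-17B libraries lay on either side of the PBS libraries, at 1.15 and 0.97 of their mean. The fitted log2 fold change was 0.01 with a standard error of 0.11 (edgeR, adjusted p = 0.975).

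HNF4A and HNF4G, which bind the same DNA sites, were at the limit of what the libraries can show. HNF4A (chromosome 20, 44355700 to 44434596, plus strand, ENSG00000101076.16) had 0 reads in both PBS libraries and 5 and 3 reads in the rIL-17B libraries. These counts are higher without overlap, but the 95% Poisson intervals met: the upper bounds with PBS were 0.232 and 0.286 CPM, and the lower bounds with rIL-17B were 0.111 and 0.0352 CPM. HNF4A did not enter the test and no fold is given. The genes HNF4A-AS1, AL117382.2 and MIR3646, which overlap its span, had 0 reads. HNF4G (chromosome 8, 75407914 to 75566843, plus strand, ENSG00000164749.11) had 11 and 5 reads under PBS, then 13 and 5 after rIL-17B, or 0.692, 0.388, 0.890 and 0.285 CPM. Its groups overlapped, with the rIL-17B libraries at 1.65 and 0.528 of the PBS mean. Its log2 fold change was -0.01 with a standard error of 0.75 (edgeR, adjusted p = 0.997).

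**Figure D2:**
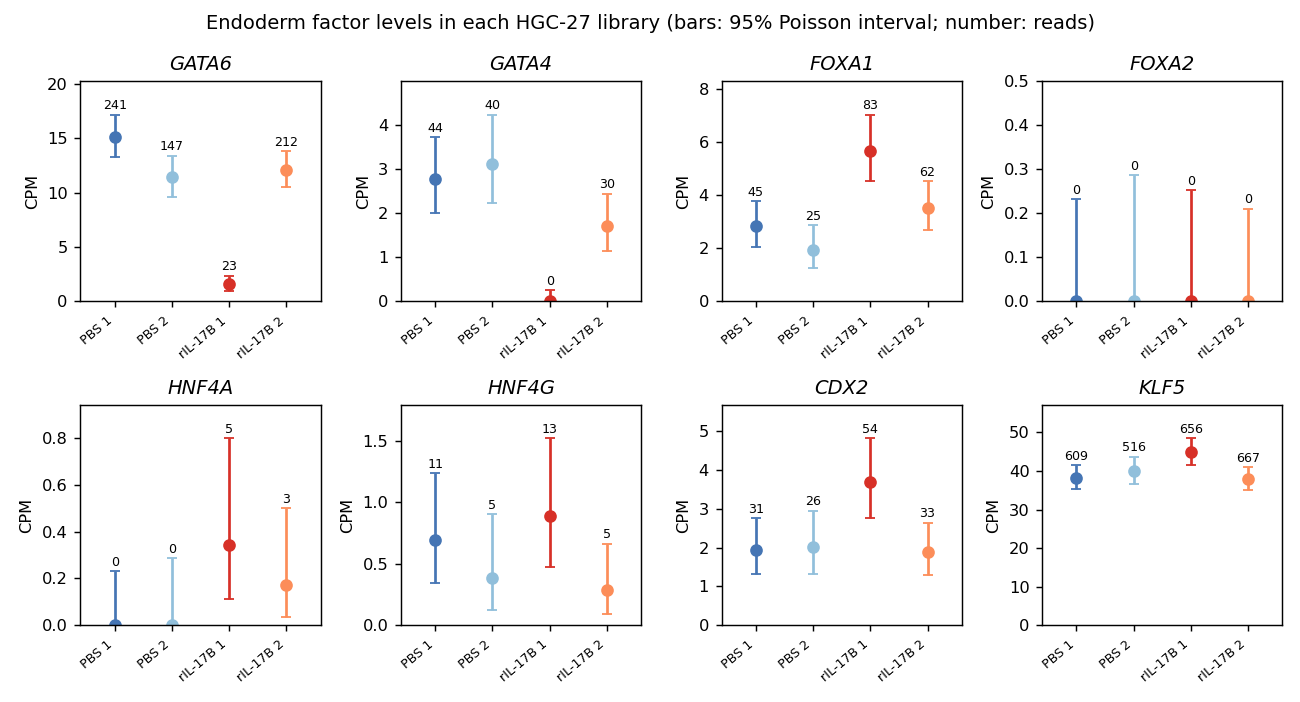
CPM of each of the 8 endoderm factors in each library (points), with 95% Poisson intervals as bars and the read count above each point; each panel has its own linear axis from 0. GATA6 and GATA4 are low in rIL-17B replicate 1 with 23 and 0 reads, FOXA1 is above PBS in both rIL-17B libraries, and KLF5 lies between 37.99 and 44.88 CPM throughout.

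The low GATA6 and GATA4 values and the higher FOXA1 value of rIL-17B replicate 1 were read against all tested genes on the log2(CPM + 0.5) scale, where the added 0.5 CPM understates the change of low genes. In rIL-17B replicate 1, GATA4 and GATA6 were at least 2-fold below the PBS mean, with log2 ratios of -2.78 and -2.73, as were 18.6% of all genes. FOXA1 was at least 2-fold above it, with a log2 ratio of 1.10, as were 2.61% of genes. The 5th to 95th percentile of all genes in that library ran from -3.28 to 0.89, so GATA4 and GATA6 lay inside this range and FOXA1 lay above it.

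In rIL-17B replicate 2, 0 of the 6 tested factors were at least 2-fold higher, against 0.0611% of genes, and 0 were at least 2-fold lower, against 0.575%. The range there was narrower, from -0.55 to 0.33, with a median of 0.00. GATA4, at -0.64 on 30 reads, lay below it, and FOXA1, at 0.48 on 62 reads, above it. The range takes in tested genes of all levels, and a gene with few reads can leave it by counting error alone. For both factors the 95% Poisson interval of this library overlapped those of the PBS libraries. HNF4A, which did not enter the test, had 0.42. GATA6 (-0.13), CDX2 (-0.06) and KLF5 (-0.04) lay well inside.

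**Figure D3:**
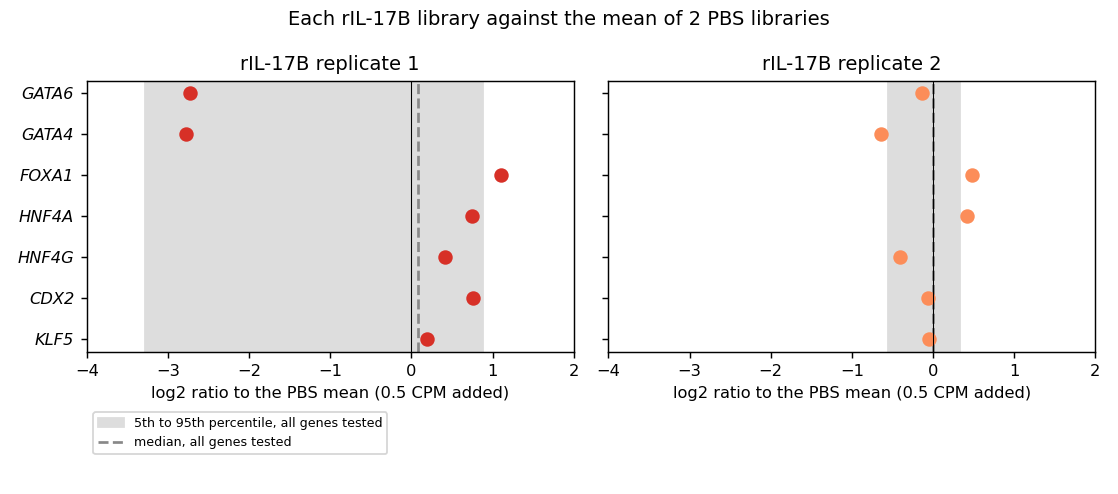
Log2 ratio of each rIL-17B library to the mean of the 2 PBS libraries, with 0.5 CPM added to each value (horizontal axis), for the 7 endoderm factors with a count; the grey band spans the 5th to 95th percentile of all 16361 tested genes and the dashed line is their median. The band is wide in rIL-17B replicate 1 (-3.28 to 0.89) and narrow in rIL-17B replicate 2 (-0.55 to 0.33), and FOXA1 lies above it in both. It takes in tested genes of all levels, so a gene with few reads can leave it by counting error alone.

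When each rIL-17B library was set against PBS without the other, the 2 libraries gave different calls. These fits assume that the lone rIL-17B library varies as the PBS libraries do. With rIL-17B replicate 1 alone, 3 of 6 factors passed edgeR's test at an adjusted p under 0.05, against 55.1% of the 17223 genes tested (3989 or 23.2% higher, and 5500 or 31.9% lower). GATA6 was lower (log2 fold change -3.22 with a standard error of 0.28, adjusted p = 4.24e-29), GATA4 was lower (adjusted p = 2.33e-11, its fold being a bound as above) and FOXA1 was higher (1.09 with a standard error of 0.32, adjusted p = 0.00172). CDX2 had a log2 fold change of 0.76 and did not pass (adjusted p = 0.0751).

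With rIL-17B replicate 2 alone, 0 of 6 factors passed, against 2.95% of the 17103 genes tested (110 or 0.643% higher, and 394 or 2.3% lower). GATA4 had a log2 fold change of -0.78 (edgeR, unadjusted p = 0.0564, adjusted p = 0.384), and FOXA1 had 0.54 (adjusted p = 0.535). The GATA6 value was -0.15 (adjusted p = 0.796), and that of CDX2 was -0.08. The calls for GATA4, GATA6 and FOXA1 therefore rest on rIL-17B replicate 1.

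The reads on the endoderm factors as a whole hardly differed in number, while their make-up did. All 8 together took 61.7 and 58.9 CPM under PBS, then 57.1 and 57.6 CPM after rIL-17B. GATA6 made up 24.6% and 19.4% of these reads with PBS, 2.76% in rIL-17B replicate 1 (95% Wilson interval 1.84 to 4.10%) and 20.9% in rIL-17B replicate 2 (18.6 to 23.6%). KLF5 made up 62.1% and 68.0% with PBS, 78.7% in rIL-17B replicate 1 (75.7 to 81.3%) and 65.9% in rIL-17B replicate 2. FOXA1 and CDX2 made up 9.95% and 6.47% in rIL-17B replicate 1, against at most 6.13% and 3.43% in any other library. In bulk samples a smaller share of cells that express a factor and less RNA of it per cell cannot be told apart.

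Relatives of the endoderm factors were read from a list of 28 GATA, FOXA, HNF, CDX, ONECUT and KLF genes. Of its 16 tested genes 0 passed in either direction, and the median log2 fold change was -0.40, against -0.03 over all genes. With rIL-17B replicate 1 alone 4 of 17 tested relatives were higher and 10 lower, where 23.2% of all genes were higher and 31.9% lower, and with rIL-17B replicate 2 alone 0 passed, where 2.95% of all genes did. GATA2, the haematopoietic GATA factor, lay on the opposite side to GATA4, with 39.4 and 38.6 CPM under PBS, then 69.0 and 44.5 CPM after rIL-17B (edgeR adjusted p = 0.661). GATA3, a factor of T cells and breast epithelium, had 13 and 11 reads under PBS, then 25 and 26 after rIL-17B. Among the relatives of KLF5, KLF6 had 68.5 and 64.6 CPM under PBS, then 40.6 and 57.5 CPM after rIL-17B, and KLF13 had 99.5 and 112.5, then 147.0 and 116.4 CPM. GATA5, FOXA3, CDX1, CDX4 and ONECUT1, relatives of the other factors, had at most 7 reads in any library.

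Partners of the GATA factors were mostly expressed, with NR0B2 at 0 in every library and NR5A2 at 3 to 12 reads. Of 13 listed, 11 were tested and 0 passed, with a median log2 fold change of -0.13. ZFPM2, a zinc finger protein that binds GATA4, had 60 and 61 reads under PBS, 10 in rIL-17B replicate 1 and 62 in the other rIL-17B library (edgeR adjusted p = 0.665). The acetyltransferase EP300 stood between 126.6 and 160.3 CPM and SMAD4, the common mediator of TGF-beta signals, between 42.1 and 48.8 CPM. Of 24 other gut patterning factors 13 were tested and 0 passed, with a median log2 fold change of 0.16. In rIL-17B replicate 1 the median log2 ratio of the tested ones to the PBS mean, with 0.5 CPM added, was 0.31. Over all tested genes it was 0.08. With rIL-17B replicate 2 alone 0 were higher and 4 of 14 were lower, SOX2, SOX9 and PROX1 among them, where 2.3% of all genes were lower. SOX2, the foregut and stem cell factor, had 75.5 and 115.5 CPM under PBS, then 10.9 and 56.6 CPM after rIL-17B (edgeR adjusted p = 0.661), so that both rIL-17B libraries lay below PBS, as for GATA4. PITX1, a homeobox factor, had 37.7 and 39.9, then 61.6 and 41.2 CPM, above PBS in both, as for FOXA1.

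Known target programs of the endoderm factors were measured next. Gastric epithelial genes, which GATA4 and GATA6 help to switch on, were near the floor. Of 22 listed 4 were tested and 0 passed, and they summed to 5.97 and 7.37 CPM under PBS, then 6.16 and 4.67 CPM after rIL-17B. The secreted products TFF1, GKN2, PGC and GAST were at 0 in every library, and CLDN18, a stomach tight junction gene, had 19 to 28 reads. Hepatic targets of HNF4A and FOXA (20 listed, 4 tested, 0 passed) summed to 5.97 and 6.44 CPM under PBS, then 3.28 and 4.50 CPM after rIL-17B.

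Of 30 intestinal genes, the program of CDX2 and HNF4A, 7 were tested and 0 passed, and these 7 were split. The peptidase gene ANPEP had 137.6 and 132.8 CPM under PBS, then 8.69 and 120.8 CPM after rIL-17B, and VIL1, of villin, had 0 reads in rIL-17B replicate 1 and 35 to 58 elsewhere. Above PBS in both rIL-17B libraries, as for FOXA1, were the phosphatase gene ALPI (29.5 and 33.1, then 60.1 and 37.4 CPM), USH1C and CDHR5, of the microvillus tip (edgeR adjusted p = 0.661 for each). With rIL-17B replicate 1 alone 3 of the 7 were higher and 4 lower, in a fit that called 23.2% of all genes higher and 31.9% lower. FABP1, SI, APOA1 and TFF3 were at 0 throughout.

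Markers of other cell types differed alongside GATA4, GATA6 and FOXA1, most in rIL-17B replicate 1, and their part in those values was not tested. The 24 mesenchymal genes, all above 0 in every library, summed to 60800 to 61960 CPM under PBS and to 1986 and 51990 CPM after rIL-17B, 24 epithelial genes (3 to 8 of them at 0) to 1014 to 1018, then 2251 and 1271 CPM, and 18 neural and glial genes to 572.6 to 783.4, then 50.8 and 431.3 CPM, with SOX10, DCX and ELAVL4 among those at 0 throughout. E-cadherin (CDH1) had 7 to 11 reads per library. The median log2 fold changes of these lists were -1.09, 0.44 and -1.40, and 0 of their genes passed with 4 libraries. With rIL-17B replicate 2 alone, where 0.643% of all genes were higher and 2.3% lower, 5 of 24 mesenchymal and 8 of 14 neural and glial genes were lower and 2 of 13 epithelial genes, KRT8 and KRT18, were higher. The same fit called 1 endothelial gene, KDR, lower and 0 monocyte or lymphocyte genes. Endothelial genes (8) summed to 47.2 to 56.6, then 6.43 and 39.5 CPM, and lymphocyte genes (10) to 7.42 to 9.08, then 1.03 and 6.72 CPM. Monocyte and macrophage genes (15), looked at because the library protocol in the labels speaks of monocytes, summed to 22.9 to 24.5, then 8.62 and 24.7 CPM, with 11 of them, PTPRC and SPI1 included, at 0 in rIL-17B replicate 1. Of the 9 tested, 8 had a log2 fold change below 0 over the 4 libraries, as had 8608 of all 16361 genes tested. CSF1R was the exception, with 3.90 and 5.59 CPM under PBS, then 8.14 and 6.15 CPM after rIL-17B.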

How the data were processed

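RNA sequencing of HGC-27 cells gave 2 PBS and 2 rIL-17B libraries. The authors deposited counts, whole numbers of reads per gene name without normalization, listing genes with at least 1 read. The submitters' processing notes name hg38, Bowtie2 2.2.3, HISAT2 2.1.0, TopHat2 and HTSeq 0.6.0, with no role or order; which annotation was used, and whether strand was, is not given in the sources used here. Entries whose names had become numbers, as spreadsheets do with dates (22 to 25 per library, 0.228 to 0.2438% of counts), were left out, and each of 83 to 98 repeated names, whose counts were equal, was kept once. Totals were then 15904594 and 12888029 (PBS) and 14615341 and 17555879 (rIL-17B), over 26195, 25632, 23033 and 26216 genes. CPM is the count divided by this total, and per kb values use exon lengths from GENCODE 29, in which 97.84% of names were found once. MIST1 was counted as BHLHA15.

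Tests used edgeR (version 4.0.16, R 4.3.3) with filterByExpr, TMM normalization (factors from 0.97 to 1.07), the two-sided quasi-likelihood F test, and Benjamini-Hochberg adjustment over all genes tested, threshold 0.05. The fit was tested on simulated counts with known changes. In these all libraries had the same spread and both rIL-17B libraries the same changes, so a library that stands apart was not simulated. Alternatives were DESeq2 1.42.0, other normalizations and filters, a replicate block, summed repeated names and leaving out each library. For levels they were TMM library sizes, the longest transcript as length and leaving out each library. The members and all 13 gene lists, written by hand, were chosen with earlier results of these data known. Named were the 8 factors and the genes overlapping them. Each list added the 3 genes highest in mean CPM and the 3 with the smallest p among those tested. Each tested factor added the 3 genes nearest to it in log2(CPM + 0.5) centred on PBS (root mean square difference over 4 libraries, genes of at least 1 CPM). Other genes were named after their values were seen, and a few genes are not reported here. Promoter bases came from RefSeq (GRCh38.p14).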

Additional observations from a re-analysis of the deposited data

How the results depend on the processing

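With all 4 libraries, 0 of the endoderm factors and 0 genes passed under every alternative run (DESeq2, upper-quartile normalization, plain library totals, no filter, at least 10 counts in every library, summed repeated names and the replicate block), with 161 to 879 genes at an unadjusted p under 0.05. The replicate block gave 0 calls and 173 such genes, and log2 fold changes of -2.87 for GATA4 and -1.62 for GATA6. Same-numbered libraries had a correlation of 0.0815 between their deviations from the group means. With 2 libraries per group and rIL-17B replicate 1 standing apart, this value cannot show whether the numbers pair libraries. The block changed no call.

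Leaving out single libraries gave 0 to 9489 genes past the threshold (504 without rIL-17B replicate 1, 9489 without rIL-17B replicate 2) and 0 to 3 endoderm factors (3 without rIL-17B replicate 2). Of all 8 factors, 3 had groups that did not overlap with all libraries, the untested HNF4A among them, and 3 with TMM library sizes. When a library was left out they numbered 3 to 7 (6 without rIL-17B replicate 1, 7 without rIL-17B replicate 2), a comparison chosen after seeing the data. Of the 6 tested factors, 1 was higher and 1 lower without overlap with all libraries. The share of all tested genes without overlap was 59.0% with all libraries and 73.1% to 90.9% with 1 left out. The factor counts with a library left out are of all 8 factors, untested ones included, and so are not of a like set to these shares. The log2 fold changes near 0 changed sign: HNF4G to 0.00513 with upper-quartile normalization and 0.0873 with plain totals, KLF5 to -0.00168 with DESeq2 and -0.0338 with at least 10 counts. Over the left-out libraries HNF4G ranged from -0.937 to 0.545, CDX2 from -0.0796 to 0.760 and KLF5 from -0.0464 to 0.0611. Those of GATA4, GATA6 and FOXA1 kept their sign in all alternatives that could be fitted, which for GATA4 leaves out the filter of at least 10 counts in every library. GATA4, HNF4A and HNF4G had at most 44 reads in any library, so that differences of a few reads in them are within counting error.

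PBS levels moved by more than the spread of the PBS libraries only for CDX2, to 2.03 CPM with TMM library sizes, and, with the longest transcript as length, for GATA4 (0.860 CPM per kb), FOXA1 (0.833) and KLF5 (10.98).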

Other observations

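Genes whose pattern over the 4 libraries lay nearest to each tested factor were found among 14920 genes with a mean of at least 1 CPM, by the root mean square difference of log2(CPM + 0.5) centred on the PBS mean. Near to GATA4 were DLL1, a Notch ligand (difference 0.0210), and NRG2 (0.0452). GATA6 was nearest to IFI44L, an interferon-induced gene (0.0311), DNAJB9, a chaperone of the endoplasmic reticulum (0.0342), and RNF212 (0.0563). Those nearest to FOXA1 were MCF2 (0.0247), GCNT3, a mucin glycosyltransferase (0.0269), and FAM189A2 (0.0318). For CDX2 they were HRCT1 (0.00884), NEURL1B (0.0228) and AC005000.1 (0.0248), for KLF5 NADK (0.00865) and DLGAP1-AS2 (0.00947), and for HNF4G PRR13P5 (0.0238), AC004943.2 (0.0516) and ZNF774 (0.0633). These are likenesses over 4 libraries, of which rIL-17B replicate 1 stands apart, and say nothing of shared function.

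Genes that lie beside the endoderm factors on their chromosomes were listed too, with no test of each neighbour against its own factor. Of 35 listed neighbours 25 had a count, 18 were tested and 0 passed, with a median log2 fold change of 0.04 and 9 of 18 higher. Near GATA6, RBBP8, a DNA end resection gene 595733 bases away, had 42.8 and 43.0 CPM under PBS, then 67.3 and 52.9 CPM after rIL-17B (log2 fold change 0.41, edgeR adjusted p = 0.661), and MIB1, a ubiquitin ligase 298486 bases away, had 86.6 and 92.1, then 73.6 and 77.5 CPM. Near GATA4, FDFT1, the squalene synthase gene 35571 bases away, had 158.6 and 179.1 CPM under PBS, then 221.3 and 166.0 CPM after rIL-17B. DIS3, an exosome nuclease 272880 bases from KLF5, had 80.4 and 75.6, then 98.9 and 83.9 CPM.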
